A study of Mus musculus with 6 samples.

Results

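The genes described here store, release, take back and exchange calcium in the cardiac myocyte. They are Casq2, Casq1, Ryr2, Trdn, Jph2, Atp2a2, Pln, Sln, Slc8a1 and Cacna1c, chosen by name from the count table, and they make up 10 of the 54532 genes listed. RNA was sequenced from whole hearts of 6 male mice aged 3 months on a C57BL/6 background. The hearts of mice 368, 369 and 370 were resistant (α1r/rα2s/s): they carried the rodent Na/K-ATPase α1, which binds cardiotonic steroids (CTS) such as ouabain with low affinity. The hearts of mice 379, 380 and 381 were sensitive (α1s/sα2s/s): both copies of the α1 gene carried substitutions that give it a high affinity for CTS. The α2 isoform was of the sensitive form in both genotypes, as it is by nature in rodents. The allele is carried in every cell of the animal and not in myocytes alone, and the labels name no treatment.

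In a ventricular myocyte, calcium enters at each beat through the L-type channel and opens the ryanodine receptor of the sarcoplasmic reticulum (SR), which releases the stored calcium that drives contraction. The SR calcium ATPase pumps it back, under the brake of small membrane peptides such as phospholamban, and calsequestrin binds it inside the SR until the next release. The sodium-calcium exchanger returns to the outside the calcium that came in, using the sodium gradient that the Na/K-ATPase maintains. Inhibition of the Na/K-ATPase by CTS acts on this cycle through sodium, which is the textbook account of how digoxin strengthens contraction. The question asked of the counts was whether the genes of this cycle were expressed at other levels in sensitive than in resistant hearts.

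Casq2, the gene of cardiac calsequestrin, was the gene of the group that differed between genotypes, and Casq1, its paralog, encodes the calsequestrin of skeletal muscle. The 250 bases before the RefSeq start of each are shown so that the promoter of the gene that differed can be set beside that of the paralog. Casq2 lies on chromosome 3 of GRCm38 from 102086415 to 102146514 on the forward strand. Its promoter is chr3:102086165-102086414 on that strand. Casq1 lies on chromosome 1 from 172209894 to 172219868 on the reverse strand. Its promoter is chr1:172219896-172220145 on that strand. In both, capitals mark the motifs searched, on either strand.
Casq2 promoter: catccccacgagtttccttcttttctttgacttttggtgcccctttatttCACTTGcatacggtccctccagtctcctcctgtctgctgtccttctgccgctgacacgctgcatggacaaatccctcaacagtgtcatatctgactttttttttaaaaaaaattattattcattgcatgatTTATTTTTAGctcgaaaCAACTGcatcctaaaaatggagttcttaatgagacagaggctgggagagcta
Casq1 promoter: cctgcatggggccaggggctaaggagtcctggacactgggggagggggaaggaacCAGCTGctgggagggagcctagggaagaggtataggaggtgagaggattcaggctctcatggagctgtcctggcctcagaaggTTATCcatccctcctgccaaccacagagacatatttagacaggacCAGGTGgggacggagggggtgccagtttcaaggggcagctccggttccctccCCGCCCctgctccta

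The Casq2 promoter held 41.6% G and C, a match to the MEF2 box from 69 to 60 bases before the start, and E boxes (CANNTG) from 200 to 195 and from 52 to 47 bases before it. The Casq1 promoter held 61.6% G and C, E boxes from 195 to 190 and from 67 to 62 bases before the start, a GATAA match on the other strand, and there too a GC box (GGGCGG). The MEF2 box was found in 2.92% of 32851 promoters of this length, the E box in 66.2%, GATAA in 22.6% and the GC box in 32.7%. The TATA box (TATAAA), found in 12.4% of all, matched in neither promoter. Nor did the TEAD motif (CATTCC), found in 12.6%, or the CArG box, found in 1.47%. These matches describe letters and not binding. Between the transcripts of both calsequestrins the longest exact run in common was 25 bases, acgatgacgatgatgatgacgacga. It is printed as the longest stretch without a mismatch. Longer stretches alike but for mismatches were not searched, so it does not bound how much of a read could be shared.

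Total counts were 19309312 to 20470065 per heart, and the 10 genes took 1.96% to 2.14% of them. Counts were scaled to library size as CPM with edgeR's TMM factors. The quasi-likelihood test of edgeR was run on 14866 genes with Benjamini-Hochberg adjustment, and a gene was called at an adjusted p under 0.05. The counts cannot show the substitutions themselves, so genotypes were taken from the labels.

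All 10 genes passed the filter on low counts, and 1 of them, Casq2, was called, where 1.44% of all genes tested were called. The same gene was called by DESeq2, where 3.89% of the 10520 genes with an adjusted p were, a smaller set than the 14866 of edgeR. By fitted fold change, 5 of the 10 were lower and 5 higher in sensitive hearts, and their median log2 fold change was -0.0021 beside -0.0078 over all genes tested. An unadjusted p under 0.05 was reached by 2 of the 10, Casq2 and Casq1, beside 14.5% of all genes. The genotypes did not overlap in 1 of the 10, beside 20.0% of all genes. Since the 10 genes were chosen with earlier results of these data known, these shares are a description only.

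**Figure D1:**
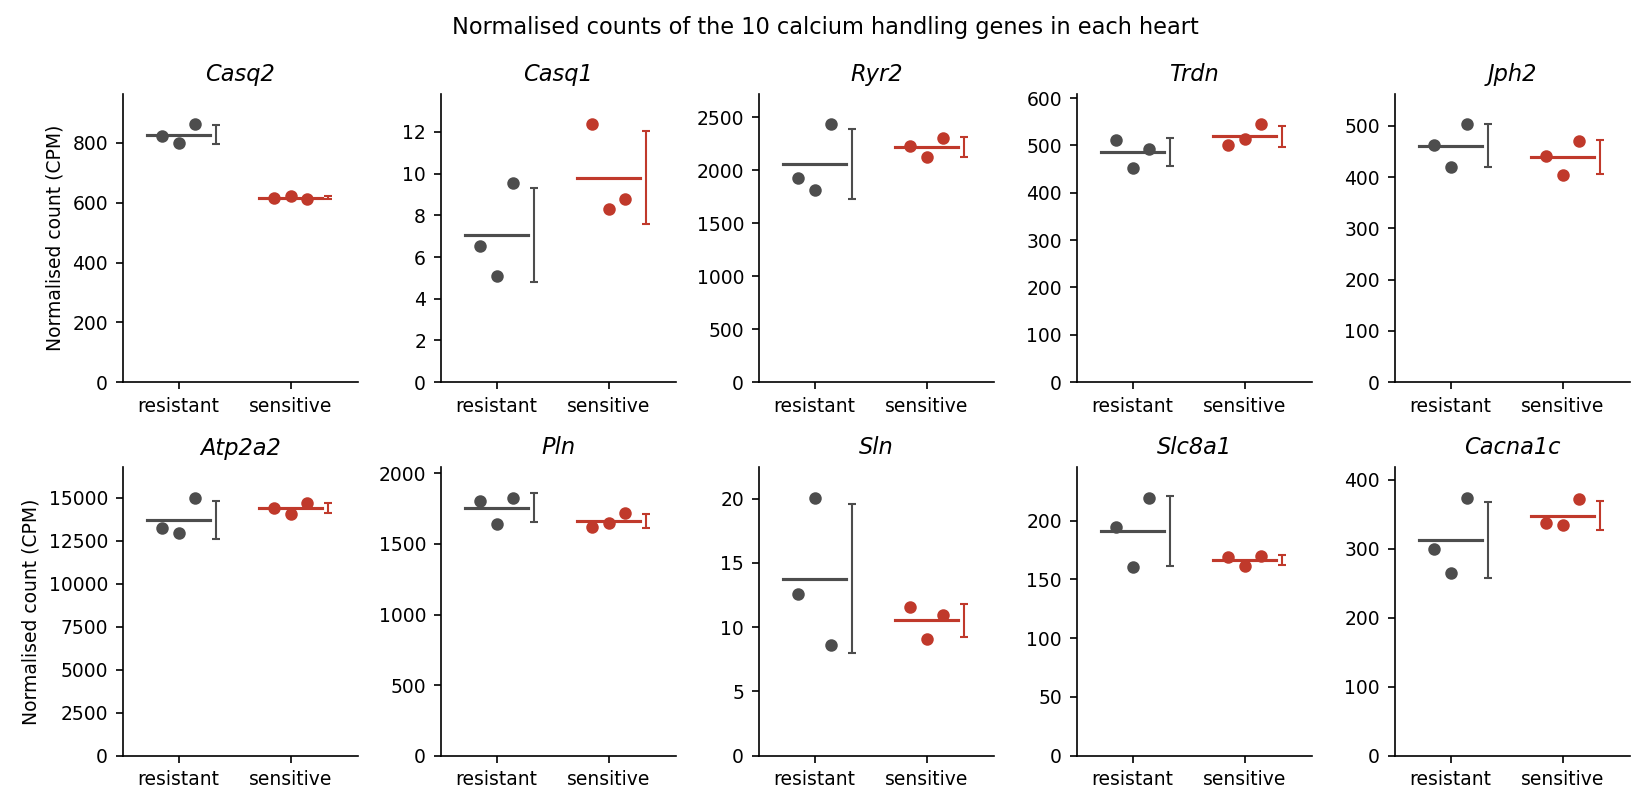
Normalised counts (CPM, linear axes from 0) of the 10 genes in each of the 6 hearts; points are hearts, horizontal lines are genotype means and bars are SD (n = 3). The sensitive hearts lie below all resistant hearts for Casq2 (611 to 623 against 798 to 862 CPM), and the genotypes overlap for each of the other genes.

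Casq2 binds calcium inside the SR with high capacity and low affinity and sits beside the release channel. It had 823, 798 and 862 CPM in resistant hearts and 617, 623 and 611 CPM in sensitive hearts. Every sensitive heart was below every resistant heart, and the sensitive hearts were close to each other. The means were 828 ± 31.9 and 617 ± 6.06 CPM (SD, n = 3), and Casq2 fell by 0.42 on the log2 scale (SE 0.07, adjusted p = 0.0057, edgeR). This is a change of -25.5%, with a 95% interval from -32.5% to -17.7%. Lower calls made up 0.659% of all genes tested, 9.98% of them lay lower without overlap, and Casq2 ranked 40 by p among them all. DESeq2 gave an adjusted p of 1.35e-10, the lowest of 7 alternatives, whose highest was 0.00612. The call was made in each of the 6 edgeR fits that left out 1 heart, with log2 fold changes from -0.45 to -0.39 and adjusted p from 0.00666 to 0.038. In bulk tissue, fewer cells of a type and less RNA per cell cannot be told apart. The 8 ventricular myocyte markers measured beside it summed to 52332 to 65755 CPM in resistant and 58452 to 63403 CPM in sensitive hearts, 7 of them having a higher and 1 a lower fitted value in sensitive hearts, with none called.

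Casq1 was far lower, at 6.54, 5.11 and 9.55 CPM in resistant hearts and 12.4, 8.31 and 8.77 CPM in sensitive hearts. The genotypes overlapped, since the highest resistant heart, mouse 370, lay above both lower sensitive hearts. Its log2 fold change was 0.48 (SE 0.22), with an unadjusted p of 0.044 and an adjusted p of 0.331 in edgeR, where 0.780% of all genes were called as higher. When a heart was left out it ran from 0.28 (without mouse 379) to 0.76 (without mouse 370, adjusted p = 0.103), and it was 0.29 without mouse 369. An antisense gene, Gm17224, shares 156 exon bases with Casq1 but had 0 to 2 counts in any heart. The skeletal muscle markers measured beside it were near 0: the 8 of them summed to 1.91 to 2.87 CPM in resistant and 1.84 to 3.18 CPM in sensitive hearts, and Myh4 had 0 counts in all hearts.

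Ryr2 forms the release channel of the cardiac SR. Its values were 1929, 1814 and 2433 CPM in resistant and 2227, 2121 and 2308 CPM in sensitive hearts. The sensitive hearts all lay inside the range of the resistant hearts. The log2 fold change was 0.11 (SE 0.10, adjusted p = 0.655, edgeR), and the interval of the change ran from -6.55% to 24.4%. Trdn encodes triadin, which ties calsequestrin to the release channel. It had 511, 453 and 493 CPM in resistant and 500, 513 and 544 CPM in sensitive hearts, with a log2 fold change of 0.10 (adjusted p = 0.588, edgeR) and an interval from -3.997% to 18.9%. Jph2 encodes junctophilin 2, which holds the SR close to the plasma membrane. It had 463, 419 and 503 CPM in resistant and 442, 404 and 470 CPM in sensitive hearts, with a log2 fold change of -0.07 (adjusted p = 0.737, edgeR) and an interval from -15.8% to 7.42%. The genotypes overlapped in all of these. A fall of the size seen for Casq2 lies outside the 95% interval of each of these 3 genes.

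Atp2a2 encodes SERCA2, the pump that refills the SR, and was the most abundant transcript of the group. It had 13254, 12928 and 14985 CPM in resistant and 14412, 14077 and 14671 CPM in sensitive hearts. The sensitive hearts lay within the resistant range, and the log2 fold change was 0.07 (SE 0.08, adjusted p = 0.735, edgeR), with an interval from -6.49% to 17.6%. Pln encodes phospholamban, the pump's main inhibitor in the ventricle. It had 1802, 1638 and 1826 CPM in resistant and 1623, 1650 and 1720 CPM in sensitive hearts, overlapping between genotypes, with a log2 fold change of -0.08 (SE 0.07, adjusted p = 0.67, edgeR) and an interval from -14.8% to 5.43%. Pln shares 1644 exon bases with Gm47644 on the opposite strand and 141 with Cep85l, and whether the counting used strand is not given in the sources used here, so reads of these genes may not be told apart.

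Sln encodes sarcolipin, an inhibitor of the pump that is known in the heart mainly from the atria. It had 12.6, 20.1 and 8.64 CPM in resistant and 11.6, 9.10 and 10.9 CPM in sensitive hearts. The resistant hearts spread more widely than the sensitive hearts and enclosed all of them. The log2 fold change was -0.39 (SE 0.23, adjusted p = 0.455, edgeR), and without mouse 369, the heart with the most Sln, it was -0.0093. Without mouse 370 it was -0.63. Of the 8 atrial markers, mouse 369 had the highest value of all hearts in 5 (Myl7, Myl4, Nppa, Bmp10 and Mybphl) but the lowest in Tbx5, at 19.3 CPM, and a low value in Pam, at 658 CPM. These markers were named after their values were seen. Myl7 had 32.99, 44.0 and 28.8 CPM in resistant and 25.6, 19.9 and 26.9 CPM in sensitive hearts, and Myl4 had 53.7, 72.8 and 39.9 CPM and 40.3, 33.6 and 38.0 CPM. The whole list of 8 atrial markers, in which Pam is the most abundant gene, summed to 854 to 917 CPM in resistant and 853 to 927 CPM in sensitive hearts, with 5 of the 7 tested lower and none called. The part of atrial tissue in the values of Sln was not tested.

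Slc8a1 encodes the sodium-calcium exchanger NCX1. It had 195, 160 and 219 CPM in resistant and 169, 162 and 170 CPM in sensitive hearts. The sensitive hearts were close together within the lower part of the resistant range. The log2 fold change was -0.20 (SE 0.09), with an unadjusted p of 0.0514 and an adjusted p of 0.349 in edgeR, and an interval from -24.2% to 0.0982%. The length deposited with the counts of Slc8a1 is 2934 bases, whereas its exons in GENCODE M21 cover 18807. Whether reads from the rest of the gene were counted is not known. Cacna1c encodes the pore of the L-type calcium channel. It had 299, 265 and 374 CPM in resistant and 338, 334 and 372 CPM in sensitive hearts, all of the sensitive hearts within the resistant range. Its log2 fold change was 0.16 (SE 0.10, adjusted p = 0.521, edgeR), with an interval from -4.31% to 29.7%.

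**Figure D2:**
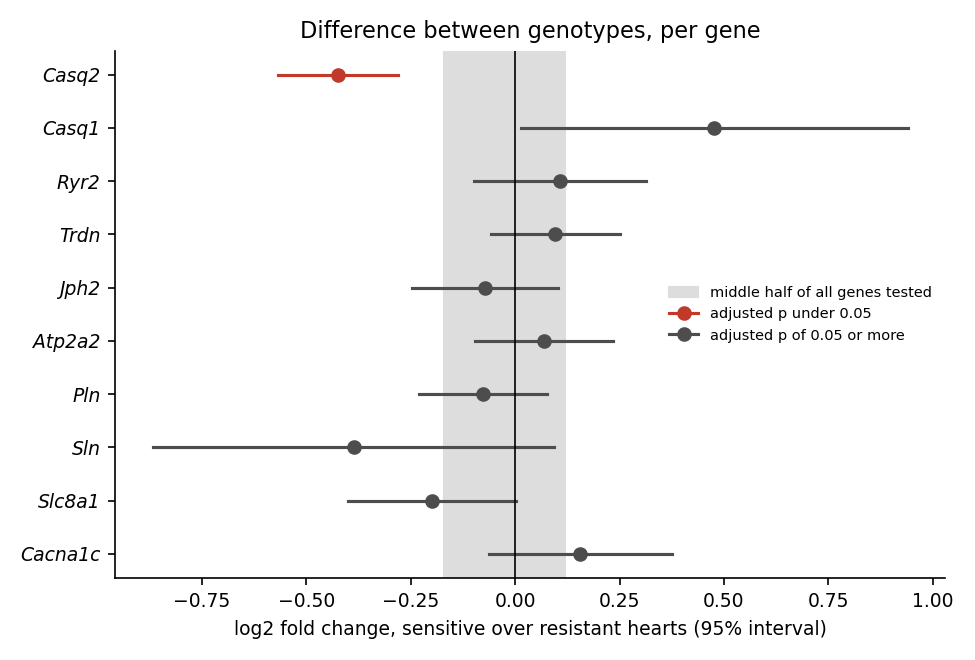
Log2 fold change of each gene, sensitive over resistant hearts, as a point with its 95% interval (edgeR, n = 3 hearts per genotype); the grey band is the interquartile range over all 14866 genes tested, from -0.17 to 0.12. Casq2 lies wholly below 0 and outside the band, and the intervals of Casq1 and Sln are the widest.

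The resistant hearts differed among themselves in a shared way. Mouse 370 had the highest value of the resistant hearts in 8 of the 10 genes, and mouse 369 the lowest in 9. This order was not particular to the 10 genes. The summed ventricular myocyte markers were also lowest in mouse 369 (52332 CPM) and highest in mouse 370 (65755 CPM) among the resistant hearts. The sums of macrophage, fibroblast and endothelial markers, given below, ran the other way, with 294 CPM in mouse 369 and 191 CPM in mouse 370 for macrophages. In Ryr2 the coefficient of variation was 15.99% in resistant and 4.23% in sensitive hearts, in Cacna1c 17.8% and 6.09%, and in Slc8a1 15.5% and 2.63%. In Casq2 it was 3.86% and 0.982%. Without mouse 370 the log2 fold change of Ryr2 was 0.25 (adjusted p = 0.0991) and that of Cacna1c 0.31 (adjusted p = 0.0886), while that of Slc8a1 was -0.09 (adjusted p = 0.697), all in edgeR. Without mouse 369 these moved the other way, to 0.03 for Ryr2 (adjusted p = 0.943), 0.05 for Cacna1c (adjusted p = 0.895) and -0.31 for Slc8a1 (adjusted p = 0.0956), again in edgeR. No call depended on either heart, but the sizes of these differences did.

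Ratios of counts within a heart do not depend on the scaling between hearts, and 8 of them were compared by exact two-sided permutation tests, in which 3 hearts against 3 cannot give a p under 0.1. Casq2 had 42.7%, 44.0% and 35.4% of the counts of Ryr2 in resistant hearts and 27.7%, 29.4% and 26.5% in sensitive hearts, a log2 difference of -0.54 (exact permutation p = 0.1). Pln had 13.6%, 12.7% and 12.2% of the counts of Atp2a2 in resistant hearts and 11.3%, 11.7% and 11.7% in sensitive hearts, a log2 difference of -0.15 (exact permutation p = 0.1). Counts of Pln were thus lower against those of Atp2a2 in every sensitive heart than in any resistant heart, although neither gene differed past the threshold by itself. Reads of Gm47644 and Cep85l may be among the Pln counts, as said above, and protein was not measured here. Slc8a1 had 1.47%, 1.24% and 1.46% of the counts of Atp2a2 in resistant hearts and 1.17%, 1.15% and 1.16% in sensitive hearts, a log2 difference of -0.26 (exact permutation p = 0.1). The Slc8a1 counts may cover only a part of the gene, as said above. Jph2 against Ryr2 gave -0.19 and Casq1 against Casq2 gave 0.92, also without overlap (exact permutation p = 0.1 for each).

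The genotypes did not overlap in 5 of the 8 ratios, of which Casq2 is in 2. The share of gene pairs at large without overlap was not computed, and the ratios share genes, so this count is a description only. After Benjamini-Hochberg adjustment over the 8, the smallest exact permutation p was 0.16, which passes no threshold. Trdn had 26.5%, 24.98% and 20.3% of the counts of Ryr2 in resistant and 22.4%, 24.2% and 23.6% in sensitive hearts (log2 difference -0.02, exact permutation p = 0.9). Cacna1c against Ryr2 gave 0.05 (exact permutation p = 0.3), with 14.6% to 15.5% in resistant and 15.2% to 16.1% in sensitive hearts. Sln against Atp2a2 gave -0.38 (exact permutation p = 0.5), and ran from -0.74 without mouse 370 to -0.02 without mouse 369.

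Levels of different genes were compared per length, as CPM per kilobase of the gene length that the count table gives. Over all hearts the mean was 2311 CPM per kilobase for Atp2a2, 620 for Pln, 264 for Casq2, 106 for Jph2, 74.3 for Ryr2, 61.0 for Slc8a1, 53.7 for Trdn, 15.6 for Cacna1c, 9.22 for Sln and 4.33 for Casq1. Atp2a2 was above 99.9% of the genes tested on this scale and Casq2 above 99.1%. The hearts' ranges of neighbouring genes overlapped between Ryr2 and Slc8a1, between Slc8a1 and Trdn, and between Cacna1c and Sln. These ranges alone do not set the order within a pair, and the order inside each heart was not compared. On the same scale Casq2 had 303 ± 11.7 CPM per kilobase in resistant and 226 ± 2.22 in sensitive hearts (SD, n = 3), and was the third of the 10 in both. The place of Slc8a1 is uncertain, since the table gives it a length of 2934 bases whereas its exons in GENCODE M21 cover 18807. The lengths of the other 9 genes were identical in both.

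**Figure D3:**
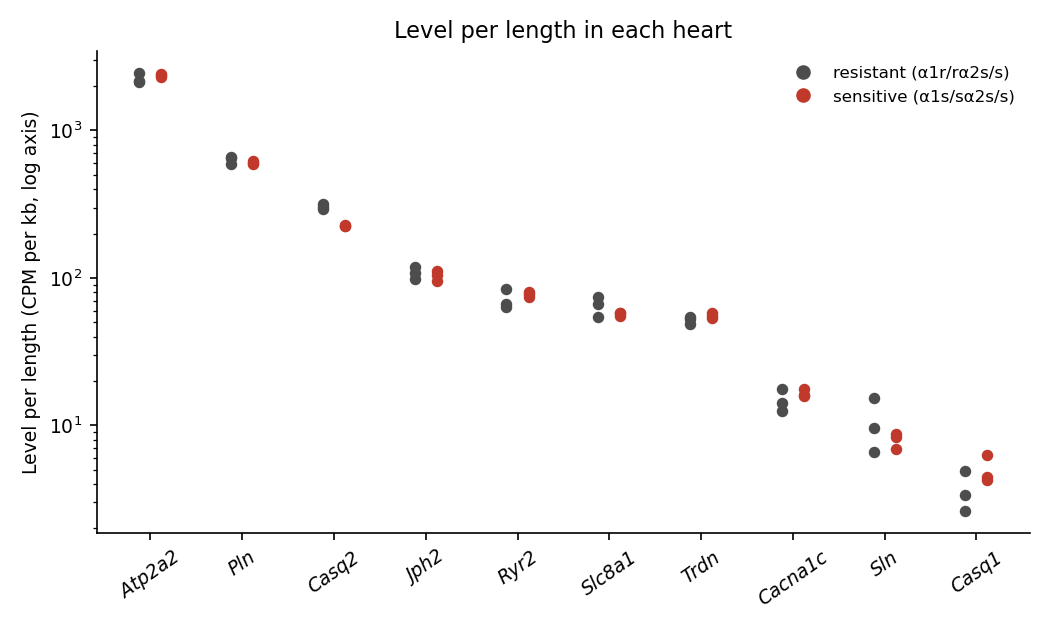
Level of each gene per length (CPM per kilobase, log axis) in each heart, ordered by the mean over all 6 hearts; points are hearts, grey for resistant and red for sensitive. Levels run from 2.62 (lowest heart, Casq1) to 2464 CPM per kilobase (highest heart, Atp2a2), and only Casq2 shows separate groups of points.

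By the pattern over the 6 hearts, the genes most like Casq2 among 12098 compared were Gm37691 (Pearson r = 0.999), Zfp932 (r = 0.995) and Ano4 (r = 0.994), given as a description, since all 6 points share their library with the value they are compared with. They were chosen for this pattern, so their own differences are no separate result: the log2 fold changes were -0.37 for Gm37691, -0.58 for Zfp932 and -0.69 for Ano4. Ano4, a member of the anoctamin family, had 9.84, 8.98 and 9.90 CPM in resistant and 6.11, 5.84 and 5.86 CPM in sensitive hearts. An r over 0.9 was reached by 250 genes.

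A list of 88 further genes of calcium handling was compared in the same fit, and 79 of them were tested. None was called by edgeR, beside 1.44% of all genes tested. An unadjusted p under 0.05 was reached by 5 with lower and 7 with higher fitted values, beside 14.5% of all genes. DESeq2 called 2, beside 3.89% of all genes with an adjusted p. Lower fitted values were found in 42 and higher in 37, with a median log2 fold change of -0.01, and the genotypes did not overlap in 25.3% of them beside 20.0% of all genes. The genes that DESeq2 called are Ppp1r3a and Hspa5. For some genes of the list, such as Ryr3, DESeq2 gave no adjusted p. Ppp1r3a, a subunit that brings protein phosphatase 1 to glycogen and to the SR, had 206, 217 and 214 CPM in resistant and 239, 259 and 285 CPM in sensitive hearts. Its log2 fold change was 0.30 (SE 0.07), with an adjusted p of 0.0657 in edgeR and 0.00309 in DESeq2. Hspa5, the calcium-binding chaperone BiP of the reticulum, had 630, 587 and 776 CPM in resistant and 487, 558 and 539 CPM in sensitive hearts. Its log2 fold change was -0.33 (SE 0.10), with an adjusted p of 0.111 in edgeR and 0.0123 in DESeq2. The values of both genes did not overlap between genotypes.

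By role, no count was past the edgeR threshold in either direction. Of the 12 other genes of the SR store and lumen, 7 had lower and 5 higher fitted values, with a median log2 fold change of -0.01. Of 19 tested genes of the release channel and the dyad, where SR and plasma membrane meet, 13 were lower and 6 higher, with a median of -0.09. The largest positive value of the list was that of Ryr3, another ryanodine receptor, at 0.52 (adjusted p = 0.418, edgeR), from 2.05 CPM in resistant to 2.95 CPM in sensitive hearts. Of 11 tested genes of reuptake and its regulators, 9 had higher and 2 lower fitted values, with a median of 0.12. Of 10 genes of mitochondrial calcium uptake, 8 were higher and 2 lower, with a median of 0.08.

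Of 21 tested genes of plasma membrane channels, 13 were lower and 8 higher, with a median of -0.10. Among genes of the wider list whose mean log2 CPM was 1 or more, the largest values beside that of Ryr3 were Cacng7 (-0.44), Cacna2d2 (-0.42) and Cacna1d (-0.34), subunits of voltage-gated calcium channels, and Cacna1g (0.34), the pore of a T-type channel, and Gem (0.30), a small GTPase that inhibits L-type channels. Their adjusted p ran from 0.216 to 0.561 (edgeR). Of 6 tested exchangers and pumps of the plasma membrane, 5 were lower and 1 higher, with a median of -0.11, and none reached an unadjusted p under 0.05. The genotypes did not overlap in 1 of 12 genes of the store and lumen, 7 of 19 of release, 6 of 11 of reuptake, 2 of 10 of mitochondrial uptake, 4 of 21 of channels and 0 of 6 of exchange, beside 20.0% of all genes.

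**Figure D4:**
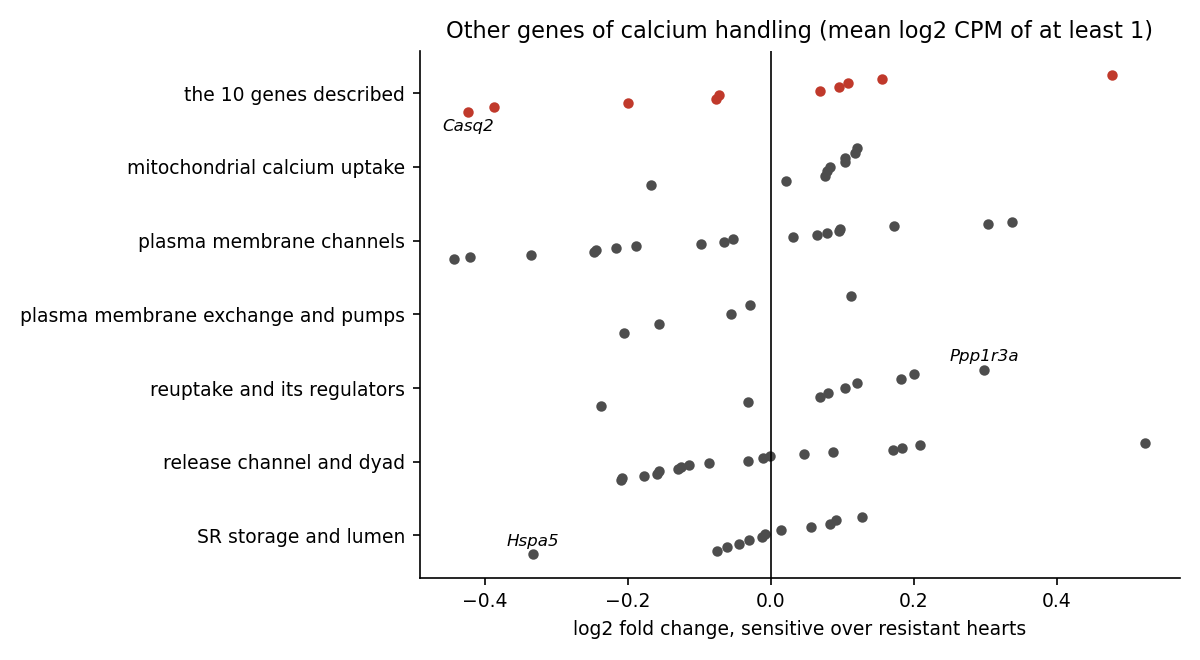
Log2 fold change, sensitive over resistant hearts (edgeR), of the genes of the wider calcium handling list whose mean log2 CPM was 1 or more, by role, above them the 10 genes described (red); each point is a gene. Most genes of reuptake and mitochondrial uptake lie to the right of 0, and Casq2 at -0.42 is the called gene.

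Markers of the other cells of the heart gave no call in any list. All 6 macrophage markers and all 6 markers of smooth muscle and pericytes had lower fitted values in sensitive hearts, as did 5 of 7 fibroblast and 4 of 6 endothelial markers. Higher fitted values were found in 2 fibroblast and 2 endothelial markers. The smallest adjusted p of these lists were 0.0542 for Col3a1, 0.0549 for Mrc1, 0.0694 for Kdr and 0.0743 for Col1a1 (edgeR). Their log2 fold changes were -0.49, -0.52, -0.50 and -0.41, near or beyond the -0.42 of Casq2. The summed level of each list overlapped between genotypes, from 191 to 294 CPM in resistant and 148 to 195 CPM in sensitive hearts for macrophages, 878 to 974 and 833 to 954 CPM for smooth muscle and pericytes, 1063 to 1243 and 969 to 1104 CPM for fibroblasts, and 878 to 1027 and 741 to 929 CPM for endothelium. A sum is weighted to its most abundant gene, which was Rgs5 for smooth muscle and pericytes (691 to 787 CPM) and Dcn for fibroblasts (511 to 576 CPM). Markers of conduction cells summed to 18.1 to 21.9 and 17.3 to 21.2 CPM. Adipocyte markers summed to 2.66 to 4.49 and 2.95 to 10.3 CPM, with Ucp1 at 0 in all hearts, and red blood cell markers to 536 to 1272 and 401 to 3187 CPM. Mitochondrially encoded genes took 23.4% to 24.4% of counts in resistant and 25.01% to 26.0% in sensitive hearts. With globin and mitochondrially encoded genes left out, Casq2 had the same log2 fold change of -0.42, which checks the scaling between hearts and not the mix of cells. The part of the cell types and of the mitochondrial share in the fall of Casq2 was not tested.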

How the data were processed

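Total RNA of whole hearts was sequenced by a company on an Illumina NovaSeq. The authors deposited raw counts of reads per gene and heart, with no normalization. The submitters' processing notes name fastp, STAR, featureCounts and mm10; versions and strand setting are not given in the sources used here. The gene lengths deposited with the counts were used for levels per length. A deposited table of the authors' own DESeq2 comparison (means, fold changes, standard errors, p-values) was not used.

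Counts were analysed in R 4.3.3 with edgeR 4.0.16 (TMM, filterByExpr with a minimum count of 10 and a minimum total of 15, quasi-likelihood test, Benjamini-Hochberg adjustment over 14866 genes, threshold 0.05). The SE is the log2 fold change divided by the root of F. CPM are scaled by TMM, with a prior count of 2 for log2 CPM. At 19309312 to 20470065 counts per heart, the spread between hearts (biological coefficient of variation 11.1%) limits precision. The paper's methods describe the controls of the study as littermates, and its section on sequencing describes them as age-matched. The litters of these 6 mice are not given in the sources used here. P-values cover the spread between these 6 hearts only. The scripts were tested on simulated data.

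Alternatives were DESeq2 1.42.0, upper-quartile or RLE factors, a filter at 10 counts in every heart or none, no globin or mitochondrial genes, a robust prior, an adjusted p under 0.1, and leaving out each heart. The 10 genes and all lists were chosen with earlier results of these data known. Named were the 10 genes, wider-list genes past the threshold and its 3 largest changes in each direction (mean log2 CPM of at least 1). Also named were the 3 genes most correlated with the gene of smallest p. Ppp1r3a, Hspa5, the atrial markers, Rgs5, Dcn and the genes overlapping or lying within the 10 were chosen after their values were seen. So were Col3a1, Mrc1, Kdr and Col1a1. Some single genes are not reported here. Strit1 was listed as Gm34302 and matched through RefSeq. Of the 54532 identifiers, GENCODE M21 holds 54409, and the coordinates of 53499 are identical there, so positions are on GRCm38. Promoters are from RefSeq (GRCm38.p6).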

Additional observations from a re-analysis of the deposited data

How the results depend on the processing

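Casq2 was the gene of the 10 called in each of 8 alternatives and in each of 6 fits that left out 1 heart, and its log2 fold change ran from -0.44 to -0.42 over the alternatives. None of the other 9 changed its direction or reached the threshold in any of these. The number of all genes called moved from 214 to 409 with DESeq2, 618 with no filter and 402 at an adjusted p under 0.1, and from 80 to 158 when a heart was left out. In the wider calcium list, with 0 called, DESeq2 and edgeR with no filter called 2 each (Ppp1r3a and Hspa5), and the robust prior and an adjusted p under 0.1 called 1 each (Ppp1r3a), and leaving out a heart called 0. The cause was not tested. The difference in Trdn against Ryr2 (-0.02) ran from -0.14 to 0.06 and turned positive without mouse 368 (0.056), without mouse 369 (0.01) and without mouse 379 (0.0070). The level of Casq2 per length ran from 254 to 272 CPM per kilobase when a heart was left out. Casq1 and Sln, at 5.11 to 20.1 CPM, had the widest intervals of the 10 genes, and differences as large as that of Casq2 lie inside the interval of Sln. No paired analysis was possible because the labels give each heart a mouse number of its own, and no number is shared between genotypes.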

Other observations

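Short genes of the GENCODE types sense intronic and TEC lie inside Casq2, Atp2a2, Ryr2 and Trdn on the same strand, without sharing an exon base. Processed pseudogenes there were left out of the sum below. Summed over the 7 of them, levels were 22.9, 18.8 and 45.2 CPM in resistant hearts and 23.9, 23.8 and 25.2 CPM in sensitive hearts. Mouse 370 thus stood above all the others. In that heart the 2 largest values but for the Casq2 intron were those inside Atp2a2, at 16.0 CPM for Gm43359 and 9.04 CPM for Gm43360. Mouse 370 was also the highest resistant heart in Ryr2, Cacna1c and Slc8a1, but none of the 7 lies in Cacna1c or Slc8a1. The part of this signal in the values of the 10 genes was not tested. In an intron of Casq2, 4632404M16Rik had 6.35, 5.49 and 10.7 CPM in resistant and 6.26, 4.997 and 5.24 CPM in sensitive hearts, a log2 difference of -0.44 (adjusted p = 0.395, edgeR) and overlapping genotypes.

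Within Trdn, the antisense gene D830005E20Rik, which shares no exon base with it, gave a log2 difference of -0.31 (adjusted p = 0.271, edgeR), and the processed pseudogene Gm47845 had -0.66 (adjusted p = 0.133, edgeR), beside 0.10 for Trdn itself. The longest exact run shared with a paralog was 13 bases between Pln and Sln and 25 between the calsequestrins. It was 44 bases between Atp2a2 and Atp2a1, 45 between Slc8a1 and Slc8a3, 43 between Cacna1c and Cacna1d, and 35 between Ryr2 and Ryr1 and between Jph2 and Jph1.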
